A study of Mus musculus with 106 samples.

Results

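Imprinted genes were followed across 106 single cells of the mouse germ cell lineage and its neighbours, from the epiblast before gastrulation to embryonic day (E) 8.25. The set was a list of 37 imprinted genes, and a gene was measured where the array carried a probe set assigned to that gene symbol alone. By this rule 33 of the 37 were measured, out of 18193 genes in all: 19 of 22 paternally expressed genes, 13 of 14 maternally expressed genes, and Gnas, whose expressed allele depends on the transcript and tissue and which was kept apart. H19, Zrsr1, Rtl1 and Dio3 had no such probe set and were not analysed here. The rule itself uses no measured value, but the list was chosen with earlier results of these data known.

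An imprinted gene is transcribed mainly from one parental copy, because a DNA methylation mark laid down in the egg or the sperm differs between the copies. Many of these genes lie in clusters under a shared control region, and many act on the growth of the embryo and placenta. Primordial germ cells (PGCs) are known as the cells in which the marks of both parents are erased, mainly after the stages sampled here, so that new marks can be set according to the sex of the individual. The arrays read total transcript and do not tell the parental alleles apart, so "paternally expressed" and "maternally expressed" below name the known class of a gene and not an allele seen in these cells.

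Each array was hybridised with cDNA amplified from 1 cell, and all embryos were C57BL/6. Wild-type cells of the lineage were pre-streak (PS) posterior epiblast with Oct4 and T (n = 8), PGC precursors with Blimp1 and Oct4 at the Early/Mid-Streak (E/MS, n = 7) and Late-Streak/0-Bud (LS/0B, n = 17) stages, and PGCs with Blimp1 and stella (Dppa3) at the Early/Mid-bud (E/MB, n = 8), early head fold (EHF, n = 8) and E8.25 (n = 8) stages. Wild-type cells outside the germ line were Blimp1+ Hoxb1+ cells, which also had Oct4, at E/MB (n = 4) and EHF (n = 4), and E/MB mesoderm of the allantois base, which had Oct4 and Hoxb1 but not Blimp1 (n = 10). Blimp1 -/- cells were chosen for the transcript of the null allele and Oct4, at LS/0B (n = 20) and E/MB (n = 12). Blimp1 (Prdm1) is a transcription factor required for germ cell fate. Every group was thus picked on marker transcripts, none of which is a member of the list. The titles of the 4 EHF Blimp1+ Hoxb1+ cells name the E/MB stage, whereas their descriptions and source names give EHF, which was followed.

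Levels below are log2 of the deposited array signal, raised where necessary to a floor of 6.13 (a signal of 70.2). The floor was taken from 126 probe sets of genes not expected in such cells, mainly odorant and pheromone receptors. "Detected" means a signal above the 95th percentile of those probe sets on the same array, a limit between 82.8 and 166. For a cell at the floor, absence of the transcript and its loss during amplification cannot be told apart. No label ties a cell to an embryo or litter, so the cells of a group count as 1 sample and no test was made between groups. "Higher" and "lower" are statements of size, a difference of group means of at least 1 log2 unit, and SDs describe the spread between cells. A share of all genes given beside a count was taken with this floor, the deposited scale and a single probe set per gene. Counts under another floor, scale or reading of probe sets have no such share and cannot be set against it.

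Germ cell, epiblast and posterior mesoderm markers were each highest in the groups whose labels name them. The germ cell list holds Blimp1 (Prdm1) and stella, the epiblast list Oct4 (Pou5f1) and the posterior mesoderm list Hoxb1. Cells were picked on these transcripts, so part of each score was set by that choice. Each PGC group had all 7 measured germ cell markers in 50% or more of its cells, and their mean score was 10.67 to 10.95 in PGCs against 6.74 to 8.48 in the other groups. The score over 7 epiblast markers was 10.54 in PS cells against 7.31 to 8.52 in the others. That over 8 posterior mesoderm markers was 9.24 to 9.70 in Blimp1+ Hoxb1+ cells and mesoderm, 8.63 to 9.03 in Blimp1 -/- cells, 8.24 to 8.64 in precursors and 6.26 to 6.56 in epiblast and PGCs. Markers of other lineages were mixed. Of 5 trophoblast genes Elf5 and Tpbpa were in no cell, but 2 or 3 were in 50% or more of the cells of each group (from among Esx1, Tfeb and Hand1, the last also a gene of extraembryonic mesoderm), with mean scores of 6.70 to 7.72. Of 8 visceral endoderm genes Apob was in no cell, while 3 were in 50% or more of both kinds of Blimp1+ Hoxb1+ cells and 1 or 2 elsewhere (scores 6.36 to 6.64). Of 9 blood and endothelium genes Hbb-bh1, Hba-x, Hbb-y and Gata1 were in no cell and at most 1 was in 50% of a group (scores 6.13 to 6.54). Abca4 and Ppp2cb, which are on none of the lists, followed the groups in part. Abca4 was in every epiblast, precursor and PGC cell, 6 of 10 mesoderm cells, 0 of 8 Blimp1+ Hoxb1+ cells and 1 of 32 Blimp1 -/- cells. Ppp2cb was in all 8 Blimp1+ Hoxb1+ cells, 19 of 20 and 11 of 12 Blimp1 -/- cells, 8 of 10 mesoderm cells, 2 of 7 E/MS and 6 of 17 LS/0B precursors, 1 of 24 PGCs and 0 of 8 PS cells. No label or file header names a batch. Mesoderm arrays had a mean hybridisation control of 11.23 log2 units against at most 10.16 in any other group, and a lower median of broadly detected probe sets (8.62 against 8.74 to 8.92). Xist, which marks cells of females, was detected in 8 of 8 PS cells, 8 of 17 LS/0B precursors, 5 of 8 EHF PGCs and 1 of 4 Blimp1+ Hoxb1+ cells at each stage, and in no cell of the other groups. The part of these differences and of sex in the results below was not tested, except where a value is given.

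**Figure D1:**
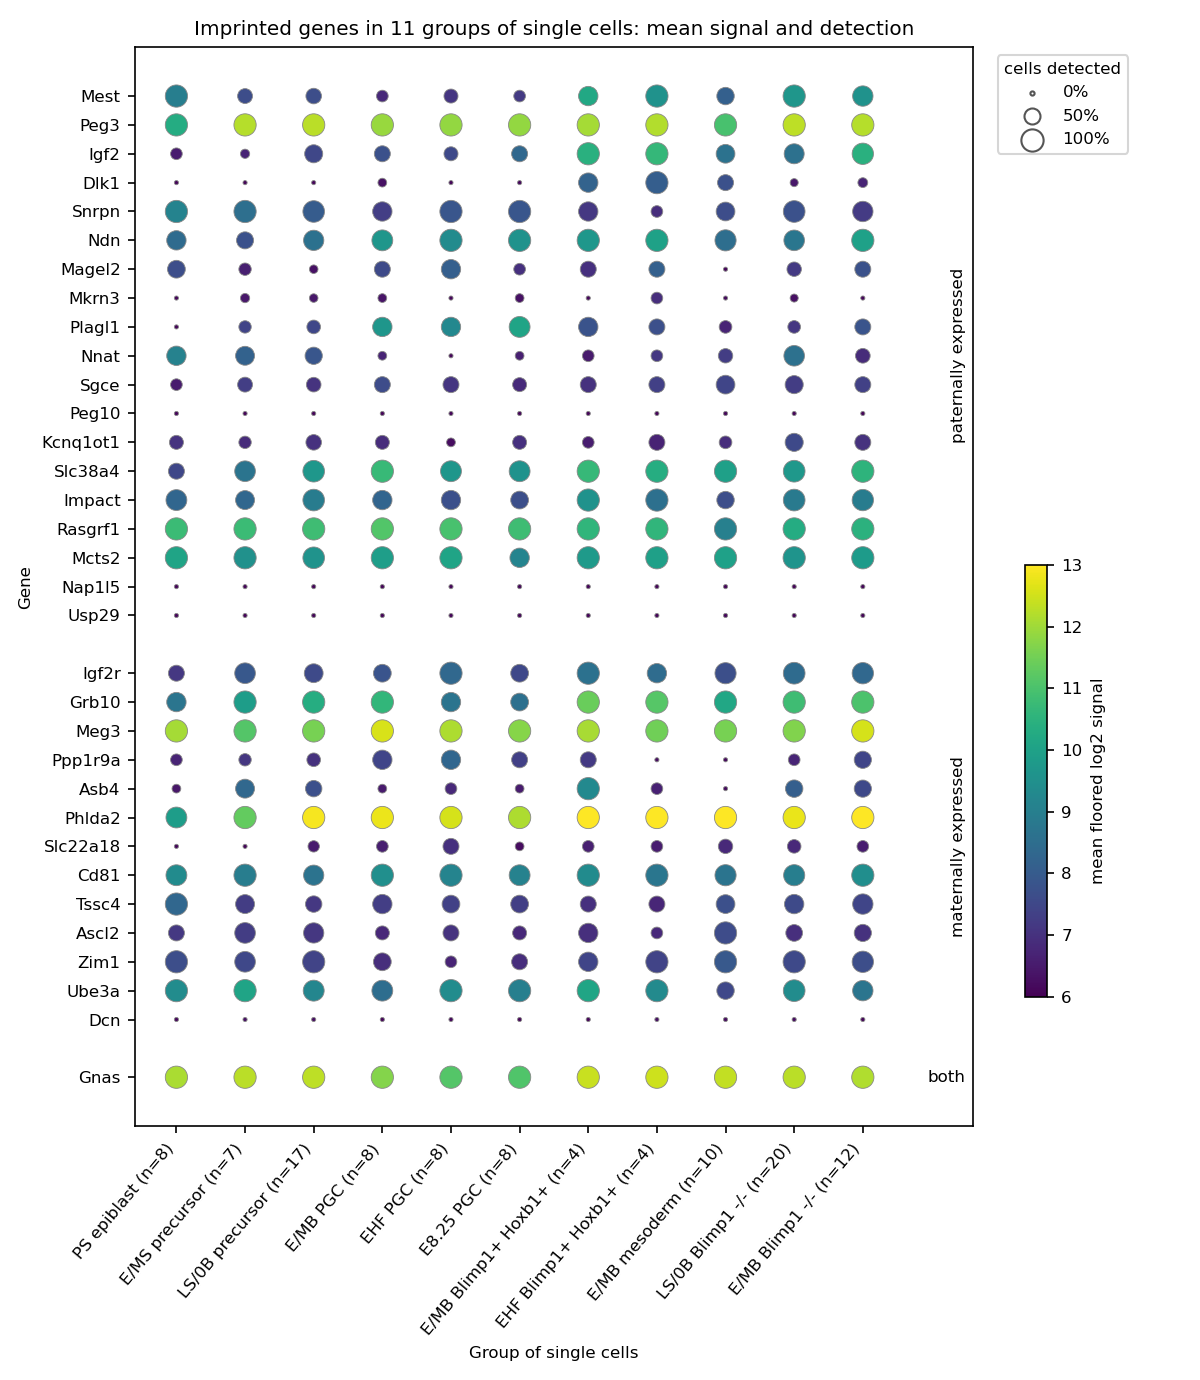
Mean floored log2 signal (colour) and share of cells detected (circle area) of 33 imprinted genes (rows) in 11 groups of single cells (columns). Peg3, Rasgrf1, Meg3 and Gnas were detected in all 106 cells and Peg10, Nap1l5, Usp29 and Dcn in none. Plagl1 has its highest means in the 3 PGC groups, and Igf2 in the Blimp1+ Hoxb1+ and E/MB Blimp1 -/- cells.

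Detection ranged from complete to absent. Peg3, Rasgrf1, Meg3 and Gnas were detected in all 106 cells. Peg10, Nap1l5, Usp29 and Dcn were in 0 of 106, which allows a share of up to 2.83% of cells with a signal, for counting error only. Here and below, such a limit is 3 divided by the number of cells, an approximation that is rough for small groups. Mkrn3 was in 8 cells and Dlk1 in 17. These numbers depend on the limit. At the 99th percentile of the background probe sets 11 members were found in fewer cells by more than 1.5 times: Zim1 in 7 in place of 90, Ascl2 in 4 in place of 66, Slc22a18 in 6 in place of 27, Snrpn in 36 in place of 93, Tssc4 in 29 in place of 74, Kcnq1ot1 in 21 in place of 45, Mkrn3 in 4 in place of 8, Sgce in 30 in place of 53, Igf2r in 50 in place of 86, Ppp1r9a in 24 in place of 40 and Dlk1 in 11 in place of 17. The range between the highest and the lowest group mean was largest for Igf2 (4.14 log2 units), Plagl1 (3.94) and Mest (3.39), followed by Phlda2 (3.32), Slc38a4 (3.23), Asb4 (3.09) and Nnat (2.95). For Mest, Igf2, Plagl1 and Nnat the SD within groups was itself 1.43 to 1.84. Of the 33 members, 21 had several probe sets, of which the one with the highest mean was used. Among the 19 of these that were detected at all, for 11 every other probe set was detected in under 50% as many cells. Averaging all probe sets of a gene left 39 of the 87 differences named below at 1 log2 unit or more. It took below 1 all those of Peg3, Rasgrf1, Impact, Grb10, Meg3, Ppp1r9a, Ube3a and Gnas and 7 of the 8 of Plagl1. Those of Igf2 fell below 1 in part, with 0.80 between E8.25 PGCs and epiblast. Between PGCs and Blimp1+ Hoxb1+ cells Igf2 stayed at -1.36 at E/MB and -1.63 at EHF. Mest, Nnat, Snrpn, Magel2, Phlda2, Tssc4 and Zim1 have 1 probe set of their symbol alone, so averaging leaves them unchanged. For Snrpn 6 more probe sets carry several symbols and were left out.

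Promoters of 4 members are printed to show how CpG-rich these sequences are and which of them hold a motif of imprinted loci: Mest, Plagl1 and Nnat, whose detection differed widely between groups, and Ndn, which was detected in most cells. RefSeq promoters (GRCm38.p6, 250 bases before to 50 after the start, the CpG-richest entry of a gene) were matched for 29 of the measured members, with a median of 17 CpG dinucleotides against 8 over 27025 genes. The hexamer TGCCGC is the core of the site of ZFP57, the zinc finger protein that protects methylation at imprinted control regions. It was searched on both strands, its reverse complement being GCGGCA. One or other strand held it in 9 of the 29 promoters (31.0%), in 6 of 16 paternally and 3 of 12 maternally expressed genes, and in 12.2% of all genes. The hexamer itself holds a CpG, and these shares were not matched for CpG content. A match is a string of letters and not a measured binding site. Capitals mark the hexamer.
Mest, chr6:30737800-30738099, plus strand: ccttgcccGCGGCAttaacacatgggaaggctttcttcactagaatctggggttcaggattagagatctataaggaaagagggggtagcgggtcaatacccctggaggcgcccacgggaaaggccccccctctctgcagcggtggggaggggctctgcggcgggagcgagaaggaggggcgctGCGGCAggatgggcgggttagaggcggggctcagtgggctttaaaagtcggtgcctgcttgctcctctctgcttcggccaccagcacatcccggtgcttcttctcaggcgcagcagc
Plagl1, chr10:13090582-13090881, plus strand: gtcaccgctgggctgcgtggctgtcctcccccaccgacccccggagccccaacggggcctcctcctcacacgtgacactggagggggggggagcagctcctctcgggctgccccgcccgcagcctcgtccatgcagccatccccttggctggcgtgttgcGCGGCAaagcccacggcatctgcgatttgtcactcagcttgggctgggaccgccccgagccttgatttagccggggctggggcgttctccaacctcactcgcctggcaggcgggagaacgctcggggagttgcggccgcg
Nnat, chr2:157559828-157560127, plus strand: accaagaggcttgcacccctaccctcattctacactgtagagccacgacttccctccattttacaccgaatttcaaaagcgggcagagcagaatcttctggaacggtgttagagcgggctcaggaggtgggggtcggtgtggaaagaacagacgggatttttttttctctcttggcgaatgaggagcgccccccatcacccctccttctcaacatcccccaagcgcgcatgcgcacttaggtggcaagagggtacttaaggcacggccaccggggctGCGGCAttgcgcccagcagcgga
Ndn, chr7:62348027-62348326, plus strand: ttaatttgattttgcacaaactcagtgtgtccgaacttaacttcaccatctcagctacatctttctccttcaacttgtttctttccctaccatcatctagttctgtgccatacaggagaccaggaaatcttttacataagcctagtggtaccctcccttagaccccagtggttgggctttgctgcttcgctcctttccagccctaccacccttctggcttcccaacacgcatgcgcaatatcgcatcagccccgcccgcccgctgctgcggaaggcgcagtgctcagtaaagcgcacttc
Mest held 17 CpG dinucleotides and 2 matches, Nnat 17 and 1, Plagl1 26 and 1, and Ndn 11 and 0. These 4 do not stand for the list. In their CpG-richest entries Igf2, Dlk1, Asb4 and Slc38a4, which also varied between groups, had 0 matches. Meg3, Mcts2, Grb10 and Snrpn, detected in most cells, had 1 each. Whether matches go with detection was not tested.

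Mest, a paternally expressed hydrolase-like protein that favours embryonic growth, was detected in every epiblast cell and in few germ cells. In PS epiblast its level ran from 7.35 through a median of 8.86 to 10.50 (8.97 ± 1.01, SD, n = 8). It was detected in 3 of 7 E/MS precursors (7.62 ± 2.18) and 8 of 17 LS/0B precursors (7.65 ± 1.75). Among PGCs the E/MB stage had 2 of 8 cells (6.81 ± 1.39), EHF had 3 of 8 (7.08 ± 0.99) and E8.25 had 2 of 8 (7.18 ± 2.11). The median of the E/MB and E8.25 PGCs was the floor, and the E8.25 mean rested on replicates 3 and 4, at 8.74 and 11.88. Mest was high in most Blimp1+ Hoxb1+ and Blimp1 -/- cells. The 4 E/MB Blimp1+ Hoxb1+ cells were at 10.997, 12.41, 6.70 and 10.70, and the 4 EHF cells at 8.69, 10.46, 11.33 and 7.79. Blimp1 -/- cells ran from 7.07 through a median of 9.51 to 12.004 at LS/0B, where 20 of 20 were detected, and from 6.13 through a median of 9.41 to 12.79 at E/MB, where 10 of 12 were. Mesoderm lay between, from 6.13 through a median of 7.50 to 10.99, with 6 of 10 detected. The other E/MB and EHF groups overlapped with the PGCs of their stage.

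Igf2, the paternally expressed insulin-like growth factor of the embryo, had its highest means in Blimp1+ Hoxb1+ and E/MB Blimp1 -/- cells. It was detected in 2 of 8 PS cells (6.53 ± 0.73), 1 of 7 E/MS precursors (6.70 ± 1.51) and 11 of 17 LS/0B precursors (7.48 ± 1.14). PGCs had it in 4 of 8 cells at E/MB (7.74 ± 1.90), 3 of 8 at EHF (7.54 ± 2.30) and 4 of 8 at E8.25 (8.33 ± 2.47). Single PGCs reached the level of the highest groups: EHF replicate 5 was at 12.37 and E8.25 replicate 4 at 12.56. The E/MB Blimp1+ Hoxb1+ cells were at 12.01, 11.61, 6.999 and 11.15, and the EHF cells at 10.76, 10.60, 11.12 and 10.19. Blimp1 -/- cells ran from 6.13 through a median of 8.68 to 11.21 at LS/0B (16 of 20 detected) and from 6.13 through a median of 11.23 to 12.72 at E/MB (11 of 12). Mesoderm was at 8.63 ± 1.96 with 7 of 10 detected. A further Igf2 probe set was detected in 2 cells only. Igf2r, the maternally expressed receptor that clears IGF2, had group means from 7.13 ± 0.90 in PS cells to 8.61 ± 0.28 in E/MB Blimp1+ Hoxb1+ cells and was detected in 8 of 8 EHF PGCs.

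Dlk1, the paternally expressed Notch-like ligand, was the most restricted of the genes with a range over 2 log2 units. It was detected in 7 of 8 Blimp1+ Hoxb1+ cells, at 9.89, 8.51, 6.13 and 8.28 at E/MB and 8.47, 8.59, 7.55 and 7.63 at EHF, and in 5 of 10 mesoderm cells (from 6.13 through a median of 7.58 to 9.92). Of the other 88 cells 5 had it, 1 of them an E/MB PGC and 4 of them Blimp1 -/- cells. All 17 cells with Dlk1 also had Igf2, which was in 50 of the other 89. Meg3, the maternally expressed noncoding RNA of the Dlk1 domain, was in all 106 cells, with its lowest mean in E/MS precursors (11.12 ± 0.66) and its highest in E/MB PGCs (12.58 ± 0.39). Of the 11 Meg3 probe sets, 4 were detected in at least 99 cells.

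Plagl1, a paternally expressed zinc finger transcription factor, had its highest means in PGCs. It was detected in 0 of 8 PS cells, which allows a share of up to 37.5%, in 2 of 7 E/MS precursors (7.42 ± 2.23) and in 6 of 17 LS/0B precursors (7.48 ± 1.94). PGCs ran from 6.13 through a median of 10.42 to 12.37 at E/MB (6 of 8 detected), from 6.13 through a median of 9.77 to 11.97 at EHF (6 of 8) and from 6.13 through a median of 11.03 to 11.73 at E8.25 (7 of 8). Each PGC group thus held 1 or 2 cells without it. The E/MB Blimp1+ Hoxb1+ cells were at 9.35, 7.64, 8.09 and 6.13, and the EHF cells at 7.58, 10.94, 6.13 and 6.13. Mesoderm had it in 3 of 10 cells (6.69 ± 0.90), and Blimp1 -/- cells in 6 of 20 at LS/0B (7.12 ± 1.62) and 6 of 12 at E/MB (7.82 ± 1.99). The other 2 Plagl1 probe sets were detected in no cell, so these values rest on 1 probe set. PLAGL1 is known to act on other imprinted genes, Igf2 among them. Igf2 was detected in 30 of the 47 cells with Plagl1 and in 37 of the 59 without. These counts pool the 11 groups, which differ in both genes. Whether Plagl1 acts on Igf2 in these cells was not tested.

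Nnat, a paternally expressed membrane protein known from the nervous system, was in most epiblast cells and almost no PGC. PS cells ran from 6.13 through a median of 10.02 to 10.53 (6 of 8 detected). E/MS precursors had it in 5 of 7 cells (8.17 ± 1.67) and LS/0B precursors in 10 of 17 (7.87 ± 1.70). Among 24 PGCs it was in 2, E/MB replicate 8 at 10.63 and E8.25 replicate 4 at 9.996. Both of these cells also had Mest (10.12 and 11.88), Igf2 (10.96 and 12.56) and Plagl1 (12.37 and 11.73). LS/0B Blimp1 -/- cells ran from 6.13 through a median of 9.10 to 10.56 (17 of 20) and E/MB Blimp1 -/- cells from 6.13 through a median of 6.25 to 8.48 (5 of 12). Mesoderm had it in 4 of 10 cells and Blimp1+ Hoxb1+ cells in 2 of 8. Over all cells Mest was detected in 43 of the 51 with Nnat and 26 of the 55 without.

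**Figure D2:**
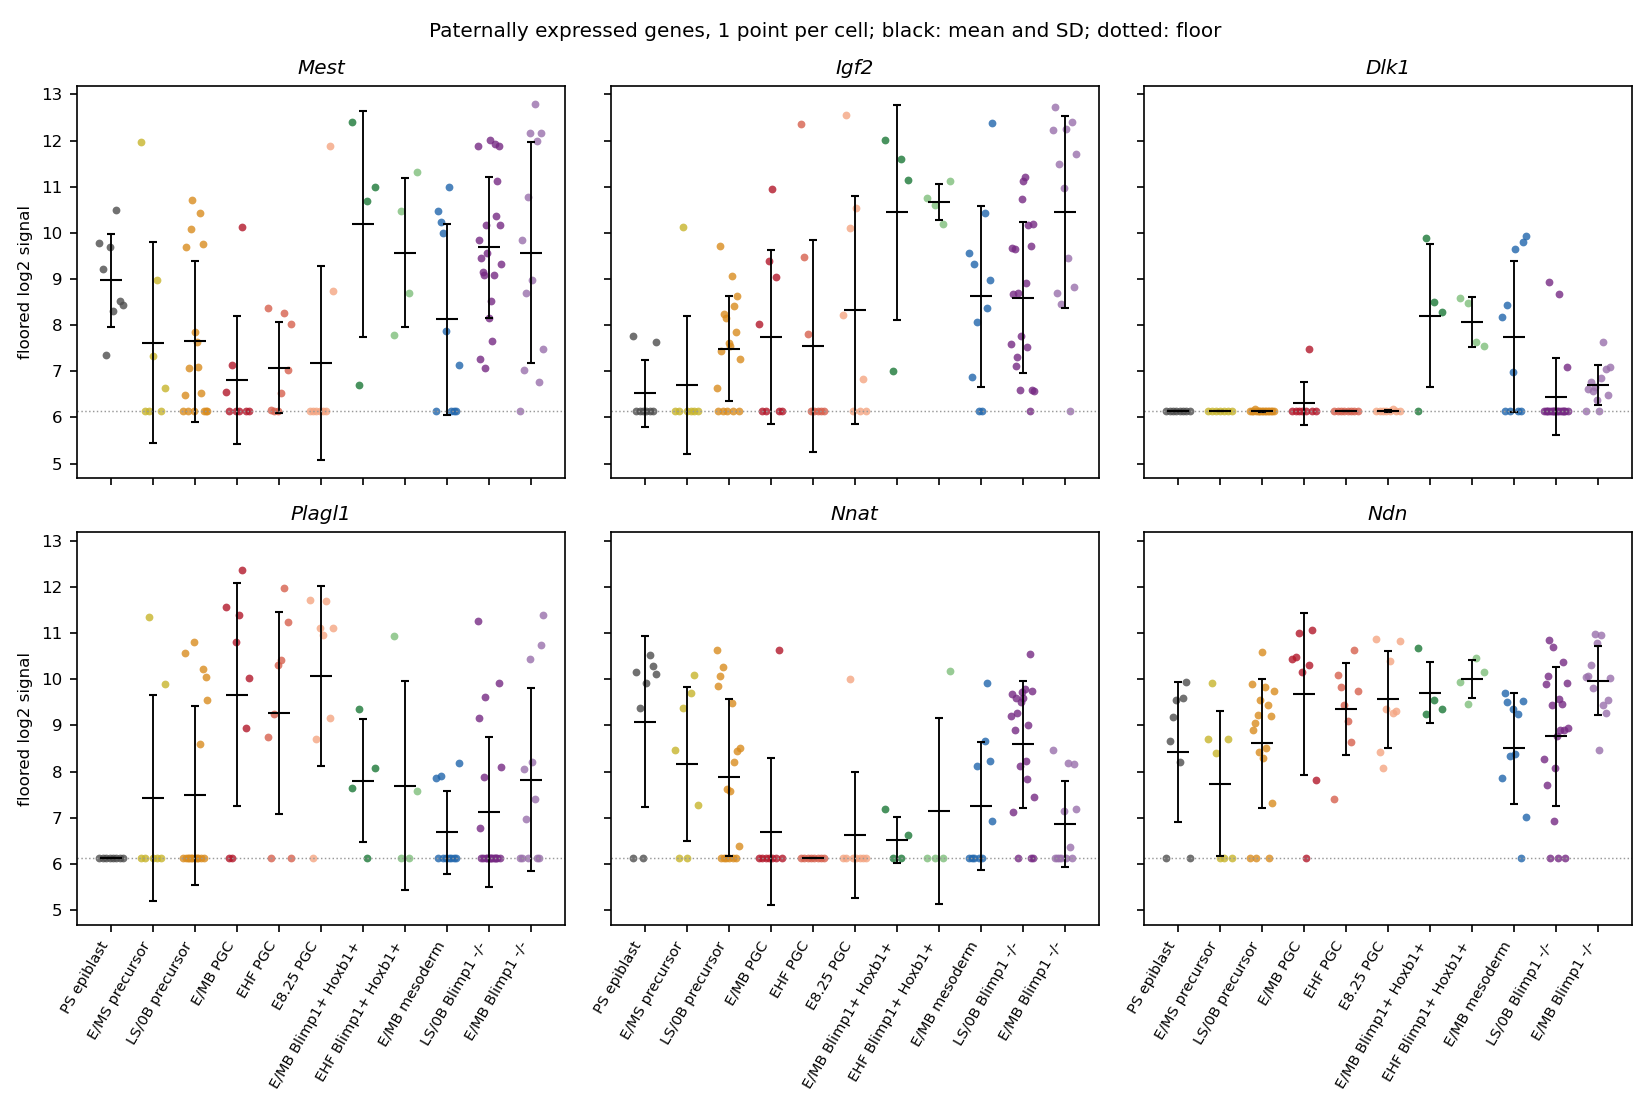
Floored log2 signal (y axis) of Mest, Igf2, Dlk1, Plagl1, Nnat and Ndn in each of 106 cells by group (x axis), with mean and SD in black and the floor of 6.13 dotted; SD bars can reach below the floor. Plagl1 is detected in 19 of 24 PGCs and in none of the 8 PS cells, and Nnat in 2 of 24 PGCs.

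Genes of the Snrpn domain differed from one another. Ndn, a paternally expressed growth suppressor of the MAGE family, was detected in 6 of 8 PS cells (8.43 ± 1.52), 4 of 7 E/MS precursors (7.74 ± 1.57) and 14 of 17 LS/0B precursors (8.61 ± 1.39). PGC means were 9.68 ± 1.75, 9.36 ± 0.99 and 9.57 ± 1.05 at E/MB, EHF and E8.25, with 23 of 24 cells detected. All 8 Blimp1+ Hoxb1+ cells had it (9.71 ± 0.66 at E/MB and 10.01 ± 0.42 at EHF), as did all 12 E/MB Blimp1 -/- cells (9.97 ± 0.74). Another 6 Ndn probe sets were detected in 66 to 93 cells each. Snrpn, the paternally expressed splicing protein of the domain, was highest in the epiblast on the 1 probe set used. PS cells ran from 8.38 through a median of 9.15 to 9.70, E/MS precursors from 7.66 through a median of 8.51 to 9.67 and E8.25 PGCs from 7.62 through a median of 7.80 to 8.20. The lowest Snrpn mean was 6.91 ± 0.30 in EHF Blimp1+ Hoxb1+ cells, with 1 of 4 detected. Magel2, also of the MAGE family, was in 39 cells, among them 6 of 8 EHF PGCs (8.08 ± 1.40), 2 of 8 E8.25 PGCs (6.97 ± 1.58) and 0 of 10 mesoderm cells. Ube3a, a ubiquitin ligase whose maternal copy is the active one in neurons, had its highest means in E/MB Blimp1+ Hoxb1+ cells (10.10 ± 0.23) and E/MS precursors (10.09 ± 0.53) and its lowest in mesoderm (7.52 ± 1.30). Another Ube3a probe set, detected in 74 cells, did not follow this order. Its means were 6.89 to 7.32, with 6.92 in E/MB Blimp1+ Hoxb1+ cells and 7.03 in mesoderm.

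Peg3, a paternally expressed zinc finger protein, was lower in PS epiblast (from 8.50 through a median of 10.53 to 11.87) than in every later group of the germ line, where means were 11.87 to 12.29. Mesoderm was the other group with a lower mean (10.96 ± 1.02). Zim1 of the same domain, maternally expressed, lay near the detection limit, between 6.70 ± 0.28 in EHF PGCs and 7.94 ± 0.35 in mesoderm, and Usp29 was in no cell. Slc38a4, a paternally expressed amino acid transporter, was detected in 4 of 8 PS cells (7.50 ± 1.56), 6 of 7 E/MS precursors (8.70 ± 1.30), 16 of 17 LS/0B precursors (9.72 ± 1.15) and 8 of 8 E/MB PGCs (10.73 ± 0.42). EHF and E8.25 PGCs were at 9.67 ± 1.60 and 9.56 ± 1.53, each with 1 cell, replicate 2, at the floor. Another Slc38a4 probe set, detected in 98 cells, had its highest means in Blimp1+ Hoxb1+ cells (11.48 at E/MB and 11.32 at EHF). On it PGCs were at 9.73, 9.21 and 9.30 at E/MB, EHF and E8.25. With both probe sets averaged Slc38a4 differed by 0.64 from LS/0B precursors to E/MB PGCs and by -0.79 from there to EHF PGCs. Rasgrf1, a guanine nucleotide exchange factor, had means of 10.31 to 11.10 in all groups except mesoderm (9.02 ± 0.71), but its other probe sets were detected in 1 and 25 cells. Impact, a regulator of translation, lay between 7.64 ± 1.56 in mesoderm and 9.55 ± 0.42 in E/MB Blimp1+ Hoxb1+ cells. Mcts2 was nearly even, with means of 9.16 to 10.10.

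Phlda2, a maternally expressed gene of the Kcnq1 domain that restrains placental growth, was higher in each later group than in the epiblast. PS cells ran from 6.13 through a median of 10.29 to 11.67, E/MS precursors from 8.63 through a median of 12.22 to 12.64 and LS/0B precursors from 12.03 through a median of 13.03 to 13.28. PGCs were at 12.80 ± 0.35, 12.54 ± 0.50 and 12.14 ± 0.44 at E/MB, EHF and E8.25. Blimp1+ Hoxb1+ cells, mesoderm and Blimp1 -/- cells were at 12.77 to 13.18. Kcnq1ot1, the paternally expressed noncoding RNA that silences the domain, was in 45 cells, with 13 of 20 in LS/0B Blimp1 -/- cells and 1 of 8 in EHF PGCs. Of the other maternally expressed genes there, Cd81, a membrane tetraspanin, was in 98 cells with means of 8.66 to 9.45, Tssc4 was highest in PS cells (8.30 ± 0.64, 8 of 8), the transporter gene Slc22a18 was in 27 cells, and Ascl2, a trophoblast transcription factor, lay near the detection limit (6.79 to 7.61).

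Grb10, the maternally expressed adaptor that dampens insulin signalling, had the largest difference between successive PGC stages. It ran from 9.31 through a median of 10.67 to 11.54 in E/MB PGCs, from 6.13 through a median of 9.45 to 11.21 in EHF PGCs and from 6.13 through a median of 8.97 to 10.93 in E8.25 PGCs, with 8, 6 and 5 of 8 detected. PS epiblast was at 8.72 ± 1.54 (6 of 8), and the precursors at 9.86 ± 0.93 and 10.34 ± 0.91, detected in every cell. The E/MB Blimp1+ Hoxb1+ cells were at 12.01, 11.49, 10.57 and 11.49 and the EHF cells at 11.25, 11.06, 11.17 and 11.14. Blimp1 -/- cells were at 10.84 ± 0.44 at LS/0B and 11.01 ± 0.61 at E/MB. The other Grb10 probe sets were detected in 5 and 28 cells. Gnas, the stimulatory G protein subunit, also had its lowest means in the later PGCs. It was at 12.11 ± 0.47 in PS cells and 12.31 ± 0.16 in LS/0B precursors, then 11.70 ± 0.63, 11.13 ± 0.79 and 11.06 ± 0.78 in PGCs at E/MB, EHF and E8.25. Means were 12.16 to 12.46 in Blimp1+ Hoxb1+ cells, mesoderm and Blimp1 -/- cells.

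In the Peg10 domain Asb4, a maternally expressed ankyrin repeat protein, was detected in 1 of 8 PS cells, 5 of 7 E/MS precursors (8.35 ± 1.70), 9 of 17 LS/0B precursors (7.70 ± 1.68) and 4 of 24 PGCs. The E/MB Blimp1+ Hoxb1+ cells were at 8.58, 11.05, 7.99 and 9.53, and the EHF cells at 6.13, 6.13, 8.15 and 6.13. Mesoderm had Asb4 in 0 of 10 cells, which allows a share of up to 30%. Blimp1 -/- cells had it in 12 of 20 at LS/0B and 7 of 12 at E/MB. Ppp1r9a, a maternally expressed phosphatase regulator, was in 40 cells, 16 of 24 PGCs among them, and in 0 of 10 mesoderm cells and 0 of 4 EHF Blimp1+ Hoxb1+ cells. Sgce, a paternally expressed sarcoglycan, varied little (6.53 to 7.60), and Peg10 was in no cell.

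**Figure D3:**
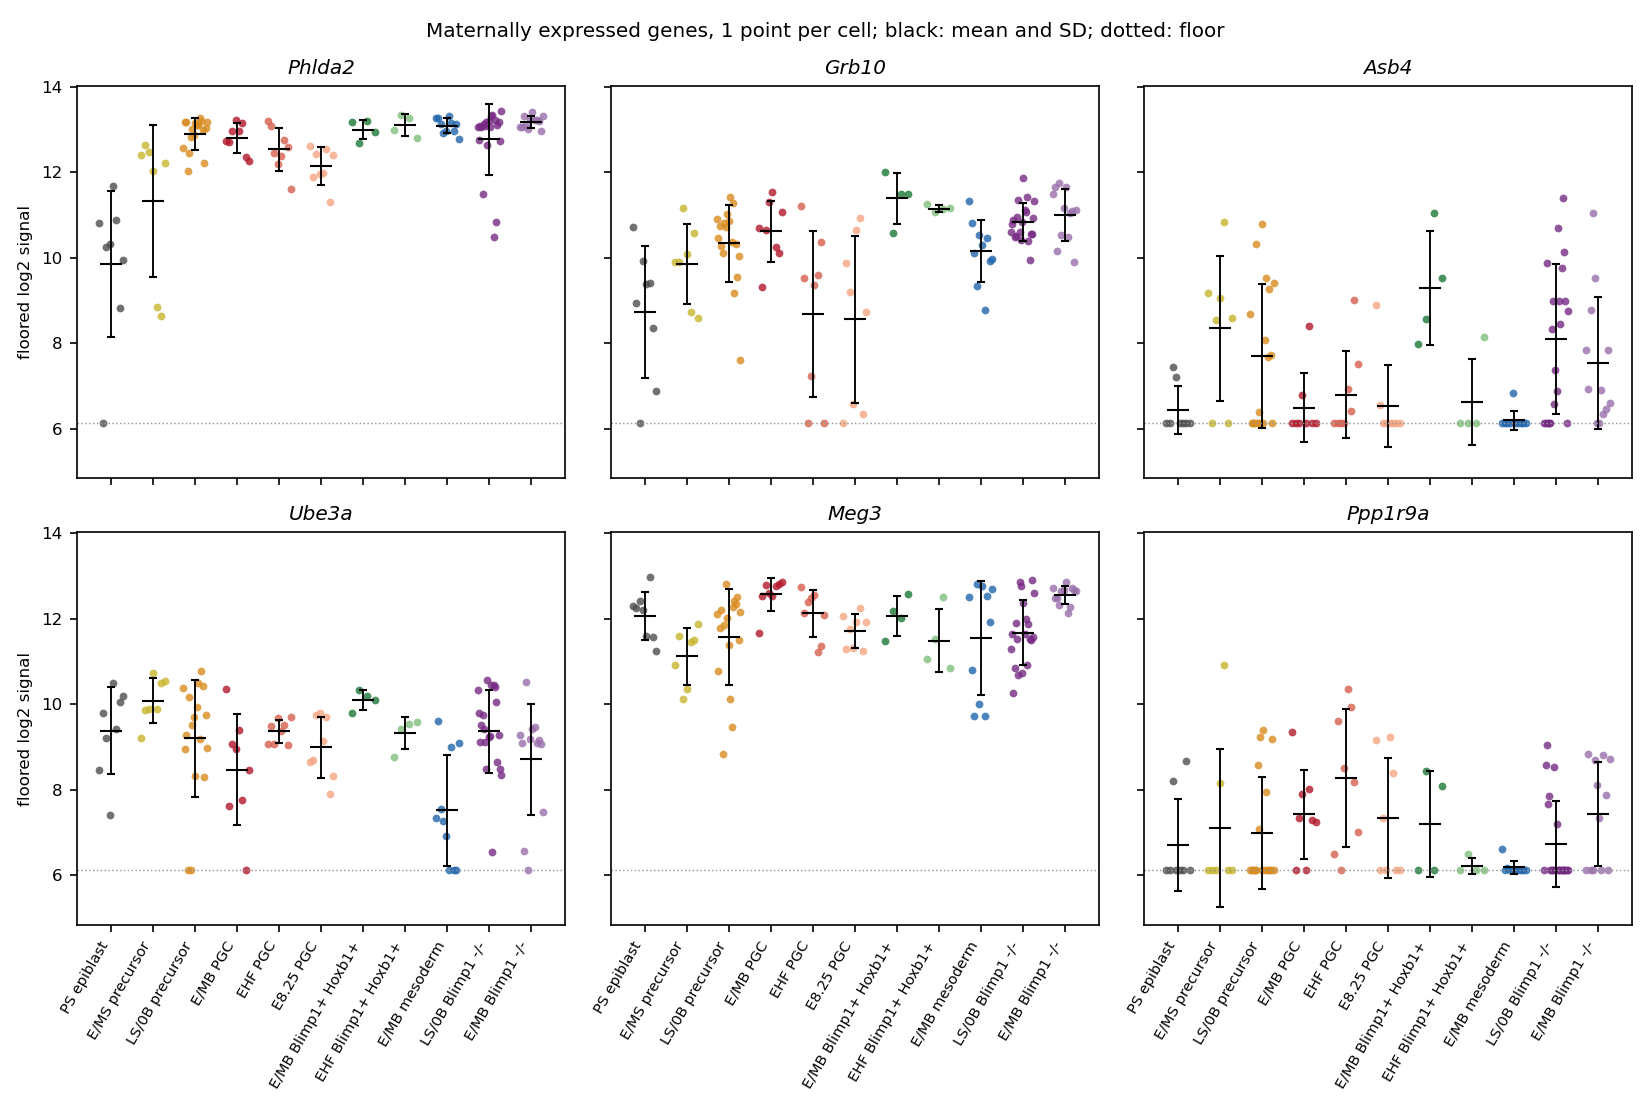
Floored log2 signal (y axis) of Phlda2, Grb10, Asb4, Ube3a, Meg3 and Ppp1r9a in each of 106 cells by group (x axis), with mean and SD in black and the floor dotted. Phlda2 is at most 11.67 in PS cells and at least 12.03 in LS/0B precursors, and Asb4 is at least 7.99 in the E/MB Blimp1+ Hoxb1+ cells and at most 6.84 in mesoderm.

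The first comparison asked how precursors of the streak stage differed from the epiblast. Among 33 members 6 were higher in E/MS precursors and 3 lower, against 2.67% and 2.94% of all genes (8 higher and 2 lower on the scale of the spiked lys control). With probe sets averaged 3 were higher, and with a floor at the 95th percentile of background 0 were lower. Asb4 was higher by 1.92 log2 units, Peg3 by 1.91, Phlda2 by 1.47, Slc38a4 by 1.20, Grb10 by 1.14 and Plagl1, in 2 of 7 cells, by 1.28. Mest was lower by 1.36, Tssc4 by 1.07 and Magel2 by 1.03. Several of these rested on single cells. Phlda2 was 0.94 without PS replicate 3, Slc38a4 0.94 without E/MS precursor replicate 1 and Plagl1 0.63 without E/MS precursor replicate 4. Grb10 was 0.77 without PS replicate 6, Tssc4 -0.89 without E/MS precursor replicate 6 and Magel2 -0.71 without PS replicate 4, and 3, 4 and 8 cells took them below 1 in turn. Xist was in 8 of 8 PS cells and 0 of 7 precursors, so sex and stage cannot be told apart here.

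From E/MS to LS/0B precursors 2 members were higher and 0 lower, against 1.48% and 1.47% of all genes (1 higher and 1 lower on the lys scale). The count higher was 5 with a floor at the 50th percentile of background and 1 with probe sets averaged. Phlda2 was higher by 1.58, and Slc38a4 by 1.02, or 0.51 with LS/0B cells without Xist and 0.59 without E/MS precursor replicate 6. From LS/0B precursors to E/MB PGCs 5 members were higher and 2 lower, against 2.96% and 2.66% of all genes. With probe sets averaged 1 was higher, and with a floor at the 95th percentile of background 0 were lower. Plagl1 was higher by 2.18, Magel2 by 1.27, Ndn by 1.07, Slc38a4 by 1.01 and Meg3 by 1.01. Asb4 was lower by 1.20 and Nnat by 1.18, and with precursors without Xist the Asb4 difference was -0.74. The Magel2 value was 0.94 without E/MB PGC replicate 8, that of Ndn 0.87 without E/MB PGC replicate 7, that of Slc38a4 0.79 without LS/0B precursor replicate 5 and that of Meg3 0.84 without LS/0B precursor replicate 4, and 10, 9 and 8 cells took Ndn, Slc38a4 and Meg3 below 1 in turn. On the lys scale, which shifts the median of broadly detected genes by -0.42 in this step, 1 member was higher and 7 were lower. Plagl1 was 2.02 and Nnat -1.49, while Magel2 (0.99), Ndn (0.80), Slc38a4 (0.56) and Meg3 (0.55) were under 1.

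PGC stages were then set against each other. At EHF 0 were higher and 2 lower than at E/MB, against 1.92% and 2.25% of all genes (1 higher and 1 lower on the lys scale). With a floor at the 50th percentile of background 3 were higher, and with probe sets averaged 0 were lower. Grb10 was lower by 1.92 and Slc38a4 by 1.06, the latter -0.56 without EHF PGC replicate 2. With the 3 EHF cells without Xist alone, 1 member was higher and 6 lower, against 4.48% and 3.87% of all genes in the same cells. From EHF to E8.25 0 were higher and 1 lower, against 1.71% and 1.53% of all genes: Magel2 by 1.11, which was -0.81 without EHF PGC replicate 1 and under 1 without any one of 8 cells. With a floor at the 50th percentile of background 3 members were higher and 4 lower in this step.

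Across the whole path, E8.25 PGCs against PS epiblast, 6 members were higher and 5 lower, against 4.90% and 5.12% of all genes (6 higher and 3 lower after quantile normalization). With probe sets averaged 3 were higher. Plagl1 was higher by 3.94 log2 units (6.28 with a floor at the 50th percentile of background), and at least 7.55-fold when the limit of detection stands for the epiblast, where no cell had it. Phlda2 was higher by 2.29, Slc38a4 by 2.06, Igf2 by 1.81, Peg3 by 1.55 and Ndn by 1.14. Nnat was lower by 2.47, Mest by 1.80, Snrpn by 1.25, Gnas by 1.04 and Tssc4 by 1.005. Snrpn was the 1 member whose cells did not overlap between the groups, against 1.28% of all genes. Igf2 was 1.20 without E8.25 PGC replicate 4, Ndn 0.81 without PS replicate 1, Gnas -0.83 without E8.25 PGC replicate 7 and Tssc4 -0.84 without E8.25 PGC replicate 1. Xist was again in 8 of 8 cells of one group and 0 of 8 of the other. Each step shares a group with the next, so the steps are not separate evidence for one another.

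Germ cells were next set against Blimp1+ Hoxb1+ cells of the same stage. At E/MB PGCs had 1 member higher and 6 lower, against 5.21% and 5.52% of all genes, and at EHF 2 higher and 6 lower, against 6.94% and 5.54%. With probe sets averaged 0 were higher at either stage. Mest was lower in PGCs by 3.39 and 2.49 log2 units at the 2 stages, Igf2 by 2.70 and 3.13, and Dlk1 by 1.90 and 1.93. Plagl1 was higher by 1.86 and 1.58, the second 0.82 among cells without Xist. At E/MB Asb4 was also lower by 2.79, Ube3a by 1.63 and Impact by 1.29, the last -0.99 without E/MB PGC replicate 2. With probe sets averaged the Ube3a difference was -0.21. With the lower floor the Asb4 difference was -4.63, and at EHF those of Dlk1 and Ppp1r9a were -3.68 and 3.36. At EHF Grb10 was lower by 2.46 and Gnas by 1.34, and Ppp1r9a was higher by 2.05 and at least 2.27-fold. Nnat, lower by 1.01 at EHF, was detected in 1 of 4 Blimp1+ Hoxb1+ cells, and its difference was 0.00 without EHF Blimp1+ Hoxb1+ replicate 4. Whether the stages differ was not tested.

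No member was free of overlap at E/MB, against 2.71% of all genes. At EHF Dlk1, Snrpn and Zim1 did not overlap, against 3.29% of all genes. Dlk1 was at least 2.28-fold lower in EHF PGCs, Snrpn higher by 0.96 log2 units and Zim1 lower by 0.70. Replicate 3 of the E/MB Blimp1+ Hoxb1+ cells, the 1 cell of that group with Xist, had neither Mest nor Dlk1 and the lowest Igf2. Without it the E/MB differences in Mest, Igf2 and Dlk1 were -4.56, -3.85 and -2.59. Abca4 was in all 16 PGCs of the 2 stages and none of the 8 Blimp1+ Hoxb1+ cells, and whether this has a part in these differences was not tested.

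Against E/MB mesoderm, E/MB PGCs had 6 members higher and 3 lower, beside 8.43% and 3.62% of all genes. The balance depended on the scale, with 4 higher and 4 lower after quantile normalization, 4 higher and 5 lower on a common median of broadly detected genes and 3 higher and 7 lower on the lys scale, and 2 higher and 2 lower with probe sets averaged. Plagl1 was higher by 2.98, Rasgrf1 by 2.08 with no overlap (1.72% of all genes had none), Magel2 by 1.45, Ppp1r9a by 1.24 and at least 1.02-fold, Ndn by 1.17 and Meg3 by 1.02. Dlk1 was lower by 1.45, Mest by 1.31 and Zim1 by 1.02. Mest was -0.996 without mesoderm replicate 4, Ppp1r9a 0.97 without E/MB PGC replicate 6, Ndn 0.91 without mesoderm replicate 2, Meg3 0.82 without mesoderm replicate 8 and Zim1 -0.93 without E/MB PGC replicate 2. With the lower floor Magel2 was 2.61 and Ppp1r9a 2.58. Magel2 was in 0 of 10 mesoderm cells, so its difference depends on the floor, and no bound above 1-fold was reached against the limit of detection. On the lys scale, which shifts the median of broadly detected genes by -0.56 here, Plagl1, Rasgrf1 and Magel2 were 2.83, 1.45 and 1.20, while Ndn was 0.57, Meg3 0.39 and Ppp1r9a 0.85.

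Outside the germ line, E/MB Blimp1+ Hoxb1+ cells had 11 members higher than mesoderm and 0 lower, against 8.46% and 2.94% of all genes. Asb4, higher by 3.09 (4.67 with the lower floor) and at least 5.04-fold, and Ube3a, higher by 2.58, did not overlap between the groups, against 2.53% of all genes. With probe sets averaged the Ube3a difference was 0.48. Mest was higher by 2.08, Impact by 1.91, Igf2 by 1.81 and Rasgrf1 by 1.57. The other 5 were Grb10 (1.23), Ndn (1.20), Plagl1 (1.11), Peg3 (1.09) and Ppp1r9a (1.02). Mest was 1.34 without E/MB Blimp1+ Hoxb1+ replicate 2, and Ndn 0.88 without E/MB Blimp1+ Hoxb1+ replicate 1, Plagl1 0.60 without E/MB Blimp1+ Hoxb1+ replicate 1, Ppp1r9a 0.60 without E/MB Blimp1+ Hoxb1+ replicate 2 and Peg3 0.89 without mesoderm replicate 6. Without replicate 3 of the Blimp1+ Hoxb1+ cells, the 1 with Xist, Mest was 3.24 and Igf2 2.96. This count depended on the scale: on that of the lys control, which shifts the median of broadly detected genes by -0.62, 5 members were higher and 4 lower. Asb4 (2.47), Ube3a (1.91), Mest (1.57), Impact (1.502) and Igf2 (1.13) were the 5, and Rasgrf1 was 0.88.

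**Figure D4:**
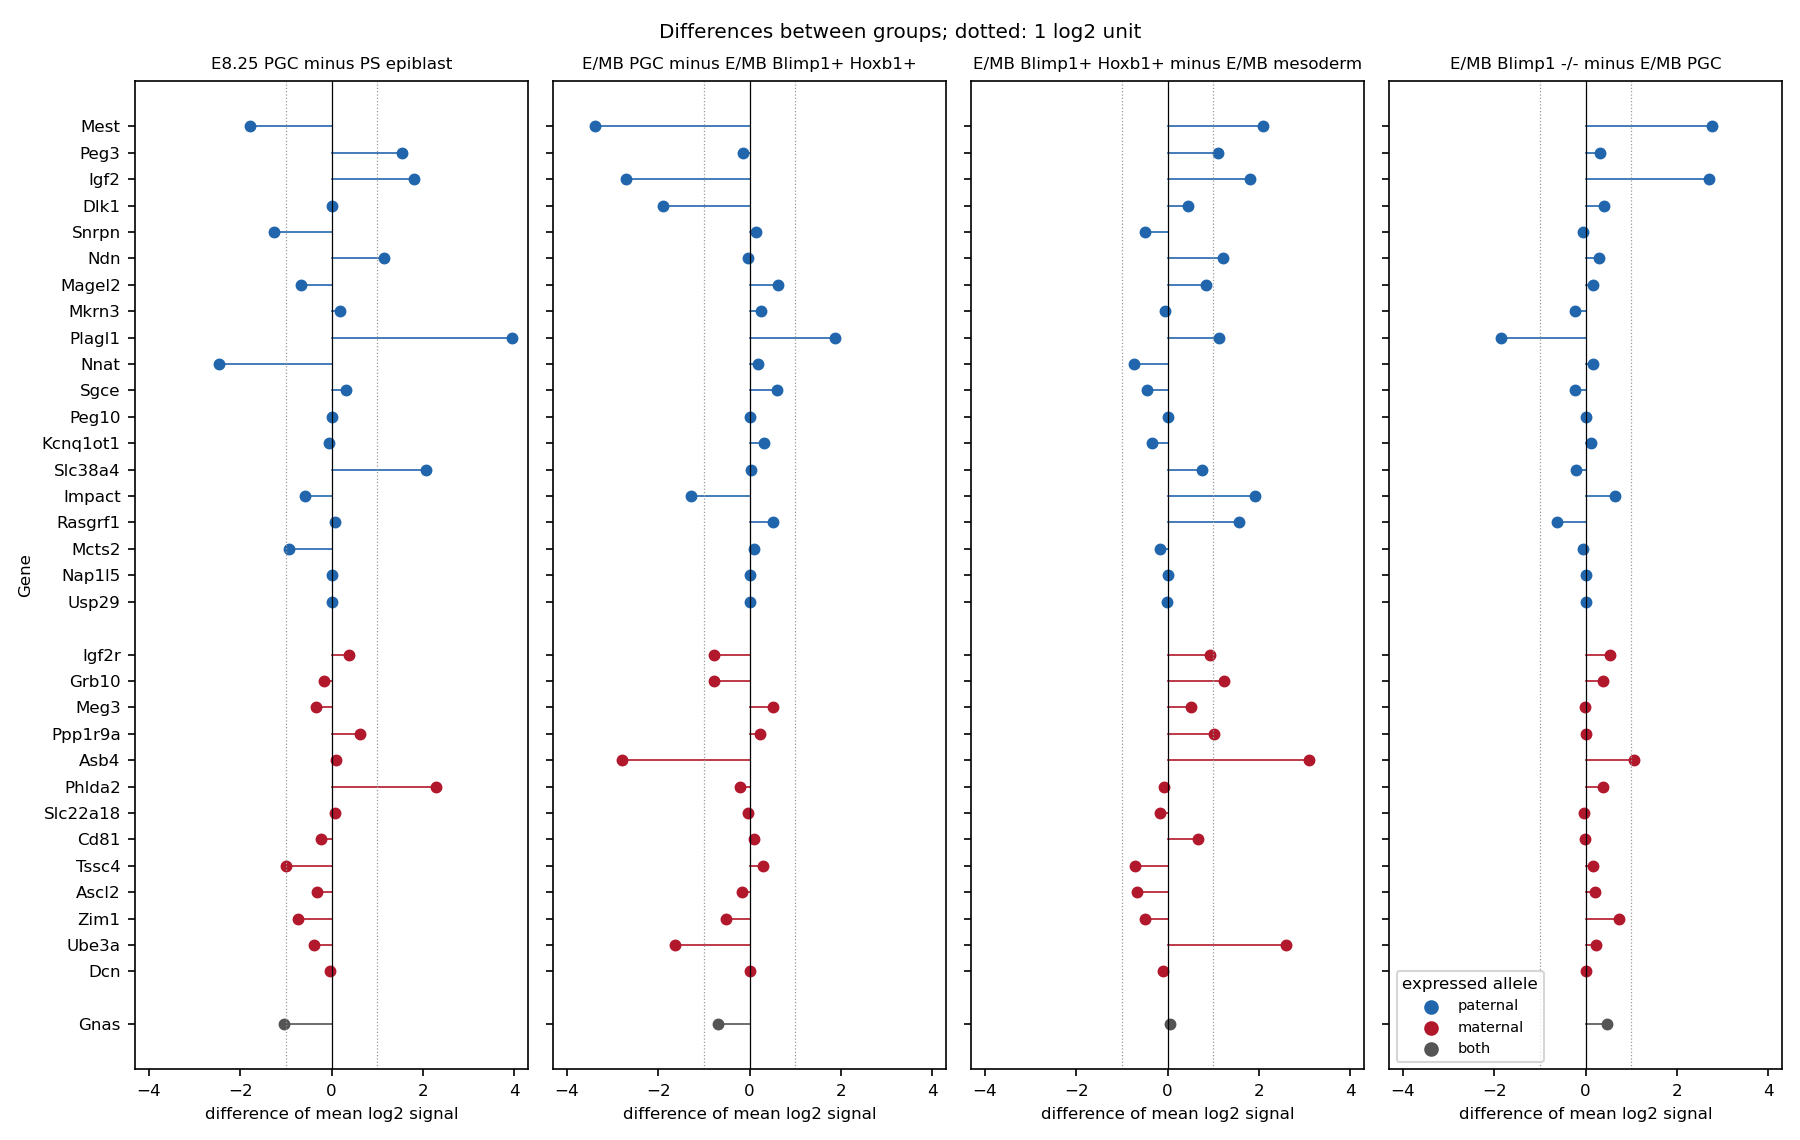
Difference of mean floored log2 signal (x axis) of 33 imprinted genes (y axis) in 4 comparisons of groups, coloured by expressed allele, with 1 log2 unit dotted. Mest and Igf2 are lower in E/MB PGCs by 3.39 and 2.70 when set against Blimp1+ Hoxb1+ cells, and higher by 2.76 and 2.70 in E/MB Blimp1 -/- cells when these are set against PGCs. The same 8 E/MB PGCs enter both panels.

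Cells without Blimp1 were compared with wild type at LS/0B and E/MB. At LS/0B 2 members were higher in Blimp1 -/- cells than in wild-type precursors and 0 lower, against 1.06% and 0.390% of all genes. The count higher was 6 with the lower floor and 1 with probe sets averaged. Mest was higher by 2.03 log2 units. It was detected in 20 of 20 Blimp1 -/- cells (83.2% to 100%) and 8 of 17 precursors (22.98% to 72.2%; exact 95% binomial intervals, counting error only). Igf2 was higher by 1.11, with 16 of 20 against 11 of 17 cells detected, and by 0.97 without LS/0B Blimp1 -/- replicate 2. Against the 6 precursors with Ppp2cb, the transcript found in most Blimp1 -/- cells, Mest was higher by 2.58 and Igf2 by 1.15, a comparison added after these values were seen. All 6 of these precursors had Xist, which 0 of the 20 Blimp1 -/- cells had, so Ppp2cb and sex cannot be told apart here. Against precursors without Xist the values were 1.89 and 0.93. Abca4 was in 17 of 17 precursors and 0 of 20 Blimp1 -/- cells.

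At E/MB 3 members were higher in Blimp1 -/- cells than in PGCs and 1 lower, against 7.61% of all genes in either direction. Mest was higher by 2.76, Igf2 by 2.70 and Asb4 by 1.05, and Plagl1 was lower by 1.84. Asb4 was 0.73 without E/MB Blimp1 -/- replicate 11, 2.58 with the lower floor, and under 1 without any one of 9 cells. On the lys scale, which shifts the median of broadly detected genes by 0.68, 10 members were higher and 1 lower, with Mest at 3.20, Igf2 at 3.21 and Plagl1 at -1.40. No share of all genes was taken on that scale, so these counts cannot be set against the 7.61%. Ppp2cb was in 11 of 12 of these Blimp1 -/- cells and 0 of 8 PGCs, and its part in these differences was not tested.

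Against mesoderm, E/MB Blimp1 -/- cells had 12 members higher and 1 lower, beside 6.89% and 1.29% of all genes. Igf2 was higher by 1.82, Magel2 by 1.62, Ndn by 1.47, Mest by 1.45, Rasgrf1 by 1.45 and Asb4 by 1.34 and at least 1.21-fold. With the lower floor Magel2 was 3.02, Asb4 2.61 and Ppp1r9a 2.41. No mesoderm cell had Magel2 or Ppp1r9a, and neither reached a bound above 1-fold against the limit of detection. Peg3 (1.26), Impact (1.26), Ppp1r9a (1.24), Ube3a (1.19), Plagl1 (1.14) and Meg3 (1.01) were the other 6, and Dlk1 was lower by 1.05. Plagl1 was 0.81 without E/MB Blimp1 -/- replicate 9, Meg3 0.80 without mesoderm replicate 8 and Dlk1 -0.81 without mesoderm replicate 5. The mesoderm cells, whose arrays have the highest hybridisation controls, are the same in all 3 comparisons with mesoderm. Between the Blimp1 -/- stages 2 members were higher at E/MB and 1 lower, against 0.544% and 0.676% of all genes (4 higher and 1 lower on the lys scale). The count higher was 5 with the lower floor and 0 with probe sets averaged. Igf2 was higher by 1.85 and Ndn by 1.21, and Nnat was lower by 1.73.

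The parental classes were also summarised as means over their genes. The mean over the 19 paternally expressed genes was 7.74 ± 0.16 in PS cells, 8.05 ± 0.44 in E/MB PGCs, 7.92 ± 0.34 in E8.25 PGCs and 7.75 ± 0.39 in mesoderm. It was 8.30 ± 0.34 and 8.37 ± 0.36 in Blimp1+ Hoxb1+ cells and 8.13 ± 0.36 and 8.27 ± 0.34 in Blimp1 -/- cells. The mean over the 13 maternally expressed genes lay between 8.08 ± 0.24 in PS cells and 8.86 ± 0.19 in E/MB Blimp1+ Hoxb1+ cells. The median difference of the paternally expressed genes was between -0.32 and 0.46 in the 14 comparisons, and that of the maternally expressed genes between -0.27 and 0.66. The median over all genes was 0.00 throughout, the value of genes at the floor in both groups, so it is no baseline. Over broadly detected genes the median was 0.16, 0.10 and 0.15 for E/MB PGCs, Blimp1+ Hoxb1+ cells and Blimp1 -/- cells against mesoderm. By the 95th percentile limit cells also differed in how many of the 33 members they had: 17.50 ± 2.56 in E8.25 PGCs and 18.25 ± 1.67 in PS cells, against 22.25 ± 1.26 in E/MB Blimp1+ Hoxb1+ cells, 21.85 ± 1.93 in LS/0B and 21.58 ± 2.35 in E/MB Blimp1 -/- cells. LS/0B Blimp1 -/- arrays had the most probe sets detected overall (12960 ± 1080, against 11215 to 12735 in the other groups). At the 99th percentile limit these groups differed by less than the SD between cells in members per cell, with 15.75 ± 2.38 in E8.25 PGCs and 14.88 ± 2.23 in PS cells, against 16.75 ± 3.20 in E/MB Blimp1+ Hoxb1+ cells, 15.10 ± 2.53 in LS/0B and 15.75 ± 2.01 in E/MB Blimp1 -/- cells. Probe sets then had another order, with 7684 on LS/0B Blimp1 -/- arrays against 9021 to 9581 on those of PGCs.

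**Figure D5:**
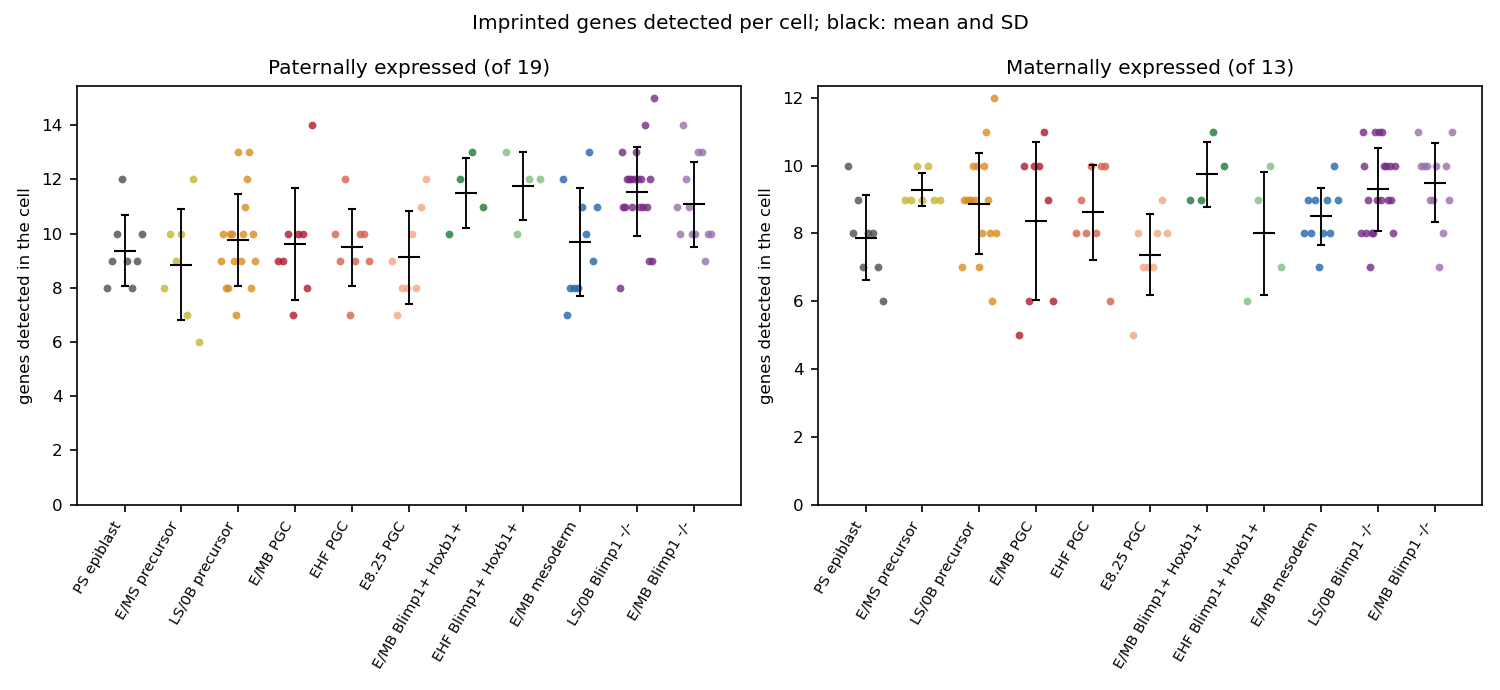
Number of paternally (left) and maternally (right) expressed genes above the 95th percentile limit in each of 106 cells (y axis) by group (x axis), with mean and SD in black. On average 11.08 to 11.75 paternally expressed genes are detected in Blimp1+ Hoxb1+ and Blimp1 -/- cells and 8.86 to 9.76 in the other groups.

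Of a further list of imprinted genes outside the 37, 34 were measured. In E/MB PGCs against mesoderm 3 of them were higher (Atp10a, Jade1 and Sfmbt2) and 1 lower (Mirg), near the 8.43% and 3.62% of all genes. Atp10a, a phospholipid flippase near Ube3a, was at 8.25 ± 1.39, 9.04 ± 1.20 and 8.28 ± 1.75 in PGCs (6, 7 and 6 of 8 detected) and in 0 of 10 mesoderm cells. It was also higher in E/MB Blimp1+ Hoxb1+ cells than in mesoderm. Between E/MB PGCs and those Blimp1+ Hoxb1+ cells Atp10a differed by less than 1 log2 unit, whereas at EHF it was higher in PGCs. Cdkn1c, the maternally expressed cell cycle inhibitor of the Kcnq1 domain, was the 1 gene of the 34 that was higher in LS/0B than in E/MS precursors (1.48% of all genes were), at 9.11 ± 1.52 (15 of 17) against 6.35 ± 0.49 (1 of 7). In PGCs it was detected in 7, 5 and 2 of 8 cells at E/MB, EHF and E8.25.

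Genes that set or keep methylation at imprints were followed as a list of 18 measured genes. In E/MB PGCs against LS/0B precursors 1 was higher, Dppa3, which was used to choose the cells, and 3 were lower, against 2.96% and 2.66% of all genes. Uhrf1, which brings the maintenance methyltransferase to replicated DNA, was at 9.84 ± 0.78 in LS/0B precursors and 6.76 ± 1.20 in E/MB PGCs. The de novo methyltransferases were lower too, Dnmt3b at 10.12 ± 2.03 and 7.89 ± 1.63, and Dnmt3a at 7.59 ± 1.37 and 6.47 ± 0.86. On the lys scale, which shifts this step downward, the 3 differences were -3.37, -2.61 and -1.32, and with probe sets averaged that of Dnmt3a was -0.24. Dnmt1, the maintenance enzyme itself, was in every cell, with means of 10.31 to 11.05, as was Trim28, the corepressor recruited by ZFP57, with means of 11.65 to 12.31. Zfp57 was detected in 2 of the 106 cells, 1 of 17 LS/0B precursors and 1 of 10 mesoderm cells.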

How the data were processed

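Expression was measured in 106 single mouse cells, 1 array per cell, in 11 groups taken from the labels. The deposited values are probe set intensities on a linear scale, which the authors obtained with MAS5 according to the submitters' processing notes. Version and scaling target: not given in the sources used here. Of 45101 probe sets, 34945 had 1 gene symbol assigned to them by GEO's platform table, while 932 had several and 9160 had none. They gave 18193 genes, each read from its probe set of highest mean log2 signal. Control probe sets (64) were left out. Signals were floored at 70.2 and put on the log2 scale.

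The number of arrays limits the precision, and no 2 arrays held identical values. Means, SDs over cells and exact 95% binomial intervals were computed with Python 3.11.15, numpy 2.4.6, pandas 2.3.3 and scipy 1.17.1, and figures were drawn with matplotlib 3.10.9. The difference of group means was tested on simulated data, in which differences were planted only in genes of high signal. That test does not cover members with many cells at the floor.

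The text names, in each comparison, members that differ by at least 1 log2 unit and that 50% or more of the higher group's cells have; Plagl1 (E/MS precursors), Nnat (EHF) and, for their lack of overlap, Snrpn and Zim1 (EHF) were named beyond this rule after their values were seen. Members and lists were chosen with earlier results of these data known. Alternatives changed the floor, the detection limit (99th percentile), the probe sets, the scaling and the cells used.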

Additional observations from a re-analysis of the deposited data

Results flagged for a closer look

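Of 184 sets of values (a member or a class mean in a group of 4 to 10 cells), 12 (6.52%) held a cell that stood apart from the others by Dixon's gap, where chance gives about 1 in 20. In E/MB PGCs the mean over paternally expressed genes was 9.06 in replicate 8, the cell with Mest, Igf2, Plagl1 and Nnat together, against 8.14 in the next, and Meg3 was low in replicate 3 (11.68 against 12.53). In E/MB Blimp1+ Hoxb1+ cells replicate 3, the 1 with Xist, was low in the mean over paternally expressed genes (7.79 against 8.41) and in Gnas (11.90 against 12.54).

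Slc38a4 was at the floor, 6.13, in replicate 2 of both the EHF and the E8.25 PGCs, and Zim1 was high in E8.25 PGC replicate 4 (7.45 against 6.95). Among E/MS precursors Peg3 was low in replicate 5 (11.17 against 12.13), Igf2r in replicate 4 (6.13 against 7.74) and Ascl2 in replicate 2 (6.74 against 7.18). Cd81 was low in PS replicate 2 (6.62 against 8.77), and Mcts2 in mesoderm replicate 3 (7.91 against 9.51).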

How the results depend on the processing

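No difference named in the text reversed its sign under any alternative run. Of the 87 that met the rule for naming, 25 stayed at 1 log2 unit or more in every setting run for them and without any single cell. Among them were those of Mest, Igf2, Dlk1 and Asb4 between E/MB PGCs and Blimp1+ Hoxb1+ cells. Those of Plagl1, Nnat, Snrpn, Phlda2, Slc38a4 and Mest between E8.25 PGCs and epiblast were among them too. All PS cells had Xist, so leaving out cells with Xist was not run for that comparison. Averaging probe sets cannot change a gene with 1 probe set. Keeping only members detected in at least 10% of cells, another setting, changes no single difference. The other 4 named were run in the same way: Plagl1 from epiblast to E/MS precursors ran from 0.43 with probe sets averaged to 1.99 with the lower floor, and at EHF Nnat from -0.82 with the higher floor to -2.09 with the lower, Snrpn from 0.74 without cells with Xist to 0.99 on the lys scale, and Zim1 from -0.47 with the higher floor to -0.77 on a common median. Averaging probe sets took 48 of the 87 below 1, a floor at the 95th percentile of background 23, the lys scale 16, quantile normalization 9, a common median of broadly detected genes 9, leaving out cells with Xist 6 of 39, and a floor at the 50th percentile 1. That lower floor moved 11 of the 87 beyond the spread between cells, each to a larger difference, among them Plagl1 between E8.25 PGCs and epiblast (6.28 in place of 3.94). The 99th percentile limit lowered the number of cells by more than 1.5 times for 11 members, from 90 to 7 for Zim1, 66 to 4 for Ascl2 and 93 to 36 for Snrpn. Some single cell took 30 below 1. On the lys scale the class means moved beyond the spread between cells in these cases. The maternal mean differed by 0.61 in place of 0.31 between E/MS precursors and epiblast, by -0.23 in place of 0.02 from E/MS to LS/0B precursors, by -0.36 in place of 0.00 from there to E/MB PGCs, and by -0.37 in place of 0.15 between E/MB PGCs and mesoderm. Between E/MB Blimp1+ Hoxb1+ cells and mesoderm the paternal mean differed by 0.15 in place of 0.56 and the maternal by 0.019 in place of 0.60 (0.26 with probe sets averaged). Between E/MB Blimp1 -/- cells and PGCs they differed by 0.68 and 0.86 in place of 0.22 and 0.28. With a floor at the 50th percentile the maternal mean between E/MB PGCs and Blimp1+ Hoxb1+ cells differed by -0.67 in place of -0.45. Counts of members moved most for Blimp1+ Hoxb1+ cells against mesoderm (11 higher; 3 with probe sets averaged and 5 on the lys scale), E/MB Blimp1 -/- cells against mesoderm (12 higher; 5 with probe sets averaged) and against PGCs (3 higher; 10 on the lys scale and 6 with the lower floor), E/MB PGCs against mesoderm (6 higher and 3 lower; 3 and 7 on the lys scale, and 2 and 2 with probe sets averaged), and E/MB PGCs against LS/0B precursors (5 higher and 2 lower; 1 and 7 on the lys scale). Of 28 counts of members in all, 18 stayed within 1.5 times with the lower floor, 21 with the higher floor, 14 with probe sets averaged, 25 with each of the other array scalings and 16 on the lys scale. The lys scale shifted the median of broadly detected genes by 0.38, -0.32 and 0.35 in the steps from epiblast to E/MS, from E/MS to LS/0B and from E/MB to EHF PGCs, by 0.23 between the Blimp1 -/- stages and by 0.10 between E/MB Blimp1 -/- cells and mesoderm. In the 3 comparisons with mesoderm quantile normalization shifted it by -0.14 to -0.19 and the common median by -0.19 to -0.22. The cause of these moves was not tested. No paired analysis was possible because no test was made and replicate numbers tie no cells of different groups to 1 embryo. A single cell near the floor gives no level. By the rough limit of 3 divided by the number of cells, groups of 4 cells allow a share of up to 75% behind 0 detected.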
